A study of Mus musculus with 18 samples.

Results

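The 10 genes described here, of the response to low oxygen and of glycolysis, were chosen by name from among the 34989 genes summed from the files and followed in mouse hearts after cold ischemia (CIS) and reperfusion. They were the transcription factor subunits Hif1a and Hif3a, the prolyl hydroxylase Egln3, the secreted factors Vegfa and Adm, the glucose transporters Slc2a1 and Slc2a4, and the enzymes Hk2, Pfkfb3 and Ldha. All 10 genes passed the filter on low counts in both ventricles. Hearts of C57B/L6 mice, aged 12 weeks by the labels and somewhat younger by the study's methods, were infused with histidine-tryptophan-ketoglutarate (HTK) preservation solution and kept in it on ice for 0, 4, or 8 h. Every heart, those at 0 h included, was then perfused ex vivo with warm Krebs buffer for 1 h, so that the 0 h group is not untouched tissue. Left ventricle (LV) and right ventricle (RV) gave 18 libraries, with 3 in every combination of ventricle and time. The labels do not say whether 1 library holds 1 heart or a pool. They also give no sex, and p-values measure only the spread between these libraries. The comparisons address how the length of storage changed the genes in each ventricle and whether LV and RV differed.

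In cells with enough oxygen, prolyl hydroxylases of the Egln family mark the alpha subunits of hypoxia-inducible factor (HIF), and the Vhl complex then directs them to destruction. When oxygen is short the alpha subunit persists, joins its partner Arnt and binds DNA at short motifs with the core ACGTG or GCGTG. Its textbook targets include glucose transporters, enzymes of glycolysis and angiogenic and vasoactive peptides, while Hif1a itself is regulated mostly at the level of the protein, which was not analysed here. The adult heart takes up glucose through Slc2a1 and the insulin-responsive Slc2a4, traps it with hexokinase Hk2, and sets the pace of glycolysis at phosphofructokinase. Enzymes of the Pfkfb family, Pfkfb3 among them, make its activator fructose 2,6-bisphosphate.

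Libraries held between 22552581 and 46236771 estimated counts, and genes of the mitochondrial genome took 22.7% to 34.4% of them. The 10 genes had between 25 counts (Hif3a, the lowest of any library) and 34522 counts (Vegfa, the highest). Markers of cardiomyocytes and of ventricle stood at high levels in every library, and the summed level of the 3 atrial markers, in counts-per-million units (CPM), was at most 252 CPM, against at least 6523 CPM for the 3 ventricular markers. At 8 h the libraries numbered 3 had the lowest cardiomyocyte markers of their group in both ventricles. The summed Y-linked genes were at 4.63 to 6.78 CPM in libraries numbered 3 at 4 and 8 h and numbered 2 at 0 h, against 133 to 194 CPM in the others. The study's methods name mice of both sexes, and levels this low are those of female tissue. Number 3 was thus low at 4 and 8 h but not at 0 h, and number 2 at 0 h only. Same-numbered LV and RV libraries of a storage time deviated together from their group means, with correlations across genes of 0.49 to 0.81, and were treated as the ventricles of 1 heart in the fits named as blocked.

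Cell type markers moved with storage, and in whole tissue fewer cells of a type and less RNA per cell cannot be told apart. The summed level of 7 cardiomyocyte markers was 48650 to 59050 CPM in LV at 0 h and 34200 to 42970 CPM at 8 h, without overlap. In RV it was 50790 to 59710 CPM at 0 h and 23500 to 50150 CPM at 8 h, with the lowest value in replicate 3. By edgeR 1 of the 7 markers was called lower in LV at 8 h (Myh6) and none in RV, where all 7 had negative log2 differences. The 6 neutrophil markers were at 1.94 to 2.40 CPM in LV at 0 h and 10.5 to 19.4 CPM at 8 h, and at 1.76 to 3.46 CPM and 12.6 to 20.0 CPM in RV. Fibroblast markers in RV were at 766 to 809 CPM at 0 h and 806 to 1479 CPM at 8 h, and macrophage markers at 136 to 205 CPM and 141 to 308 CPM. Endothelial markers ranged from 491 to 724 CPM in RV at 0 h and from 587 to 879 CPM at 8 h. The 4 erythroid markers were at 3.08 to 4.49 CPM in LV at 0 h and 8.34 to 135 CPM at 8 h, where Hbb-bs and Hbb-bt were called higher, and at 1.76 to 4.03 CPM and 2.62 to 33.5 CPM in RV, where none was called without the block. None of these lists had a marker at 0 in all libraries. The part of these shifts in the results was not tested.

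**Figure D1:**
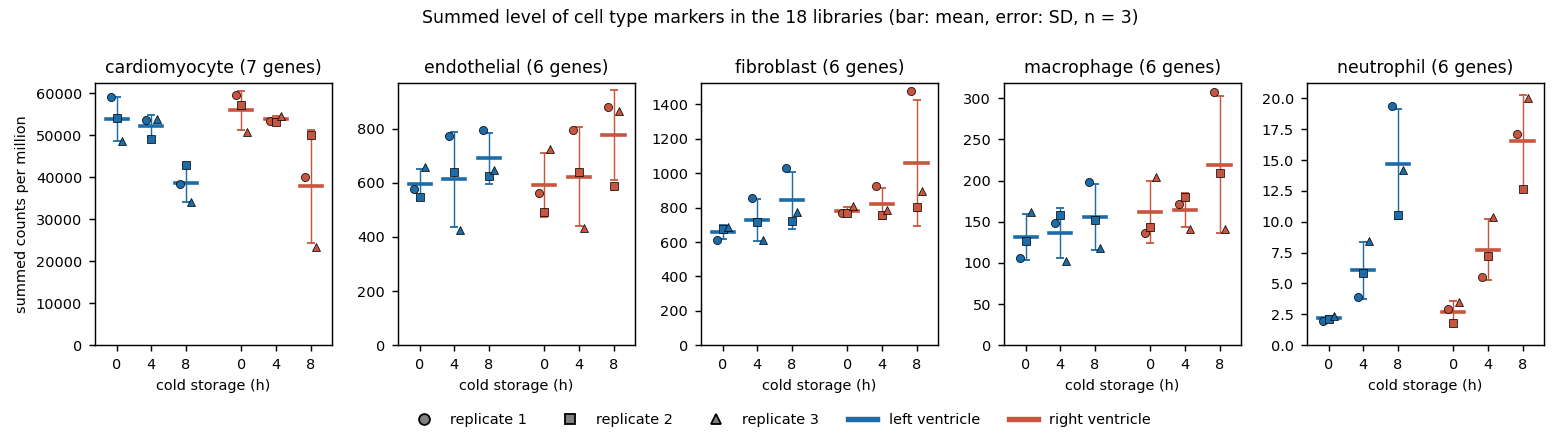
Summed CPM of the markers of 5 cell types (vertical axes, from 0) against hours of cold storage (horizontal axes) for LV in blue and RV in red. Symbols are single libraries by replicate number, bars the mean and error bars the SD of 3 libraries. Cardiomyocyte markers lie lowest in RV replicate 3 at 8 h (23500 CPM), and neutrophil markers lie higher at 8 h than at 0 h in every library.

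The promoters of the members that were called in any comparison with 0 h are shown first, with that of Ldha as a textbook HIF target that was not called. They are 300 bases of RefSeq sequence on GRCm38.p6, 250 before to 50 after an annotated start, read 5′ to 3′ on the strand of the gene. Capitals mark the HIF core ACGTG or GCGTG on either strand, and CACGTG, its own reverse complement, counts on both. The first Pfkfb3 promoter (chr2:11553880-11554179, minus strand) holds 1 match and the second (chr2:11502041-11502340, minus strand) 4. The Adm promoter (chr7:110627407-110627706, plus strand) holds 2, the Slc2a1 promoter (chr4:119108495-119108794, plus strand) 2, the Hif1a promoter (chr12:73907617-73907916, plus strand) 3, and the first Ldha promoter (chr7:46845554-46845853, plus strand) 7.
Pfkfb3 promoter 1: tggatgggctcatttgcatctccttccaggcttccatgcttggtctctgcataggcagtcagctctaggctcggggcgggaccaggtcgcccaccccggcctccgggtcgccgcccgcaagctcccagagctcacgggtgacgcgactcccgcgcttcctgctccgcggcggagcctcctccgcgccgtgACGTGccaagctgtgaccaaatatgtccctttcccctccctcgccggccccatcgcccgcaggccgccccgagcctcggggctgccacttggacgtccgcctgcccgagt
Pfkfb3 promoter 2: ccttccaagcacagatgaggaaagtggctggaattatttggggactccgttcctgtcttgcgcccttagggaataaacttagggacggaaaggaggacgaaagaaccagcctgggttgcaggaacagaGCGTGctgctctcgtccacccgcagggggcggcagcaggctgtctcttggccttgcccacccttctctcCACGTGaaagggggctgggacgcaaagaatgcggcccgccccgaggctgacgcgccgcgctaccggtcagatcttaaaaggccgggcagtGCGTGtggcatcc
Adm promoter: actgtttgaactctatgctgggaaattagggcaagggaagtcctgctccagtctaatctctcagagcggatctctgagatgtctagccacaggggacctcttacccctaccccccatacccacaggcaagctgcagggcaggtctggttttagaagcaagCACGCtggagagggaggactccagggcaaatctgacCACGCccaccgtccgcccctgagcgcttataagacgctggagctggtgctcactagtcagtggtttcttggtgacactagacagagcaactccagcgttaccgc
Slc2a1 promoter: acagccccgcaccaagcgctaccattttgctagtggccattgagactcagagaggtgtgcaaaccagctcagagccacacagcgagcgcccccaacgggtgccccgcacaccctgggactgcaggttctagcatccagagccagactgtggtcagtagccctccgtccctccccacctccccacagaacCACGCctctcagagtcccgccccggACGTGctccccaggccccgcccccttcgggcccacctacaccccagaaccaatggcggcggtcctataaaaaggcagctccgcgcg
Hif1a promoter: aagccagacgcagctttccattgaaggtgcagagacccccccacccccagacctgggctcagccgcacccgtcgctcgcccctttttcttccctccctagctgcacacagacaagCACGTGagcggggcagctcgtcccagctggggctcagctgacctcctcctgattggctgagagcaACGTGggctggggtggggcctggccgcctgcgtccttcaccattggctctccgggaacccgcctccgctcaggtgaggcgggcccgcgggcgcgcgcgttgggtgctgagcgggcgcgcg
Ldha promoter 1: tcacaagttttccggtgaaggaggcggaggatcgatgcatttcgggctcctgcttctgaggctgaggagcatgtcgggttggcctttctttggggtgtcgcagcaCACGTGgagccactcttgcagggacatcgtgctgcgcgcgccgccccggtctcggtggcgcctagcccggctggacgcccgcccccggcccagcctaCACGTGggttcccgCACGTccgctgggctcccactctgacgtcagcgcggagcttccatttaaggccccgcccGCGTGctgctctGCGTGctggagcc

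The core was present in 11 of the 12 promoters listed for 9 members, the exception being the first of Vegfa. Among all 32851 promoters of the same length 43.8% held it, so that a match in a window of this size is common. Slc2a4 had no entry in the table. By gene, all 9 members with a listed promoter had a match, against 46.7% of all genes with one. Matches are letters in a window and not binding sites, and whether they go with the calls was not tested.

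Of the 10 genes, Pfkfb3 and Adm rose after storage in both ventricles and at both times, and Slc2a1 and Hif1a rose in RV at 8 h. A gene was called when edgeR's quasi-likelihood test gave a Benjamini-Hochberg adjusted p under 0.1, over all genes tested, with a fold change over 1.5. In LV 2 members were called higher at 4 h, where 2.4% of all 14564 genes tested were called higher, and the same 2 at 8 h, where 5.46% were. In RV 2 were called higher at 4 h against 6.17% of all 14622 genes, and 4 at 8 h against 13.0%. No member was called lower, against 0.398% and 1.26% of genes in LV and 3.91% and 5.26% in RV at 4 and 8 h. The 10 members were chosen with earlier results of these data known, so the shares are given for description and test nothing. With the replicate number as a block, for which the RV libraries met the rule on correlation given below, Slc2a4 was called lower at 8 h, where 8.81% of genes were. Storage times came from different hearts, so this block does not pair tissue of 1 animal. The summed Y-linked level of RV replicate 3 was 145.5 CPM at 0 h and 6.78 CPM at 8 h. The median log2 fold change of the 10 members at 8 h was 0.00 in LV and 0.01 in RV, beside medians of -0.02 and -0.07 over all genes, with members on both sides of 0. All 4 comparisons use the 0 h libraries of their ventricle as control, so the times of a ventricle are not independent.

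**Figure D2:**
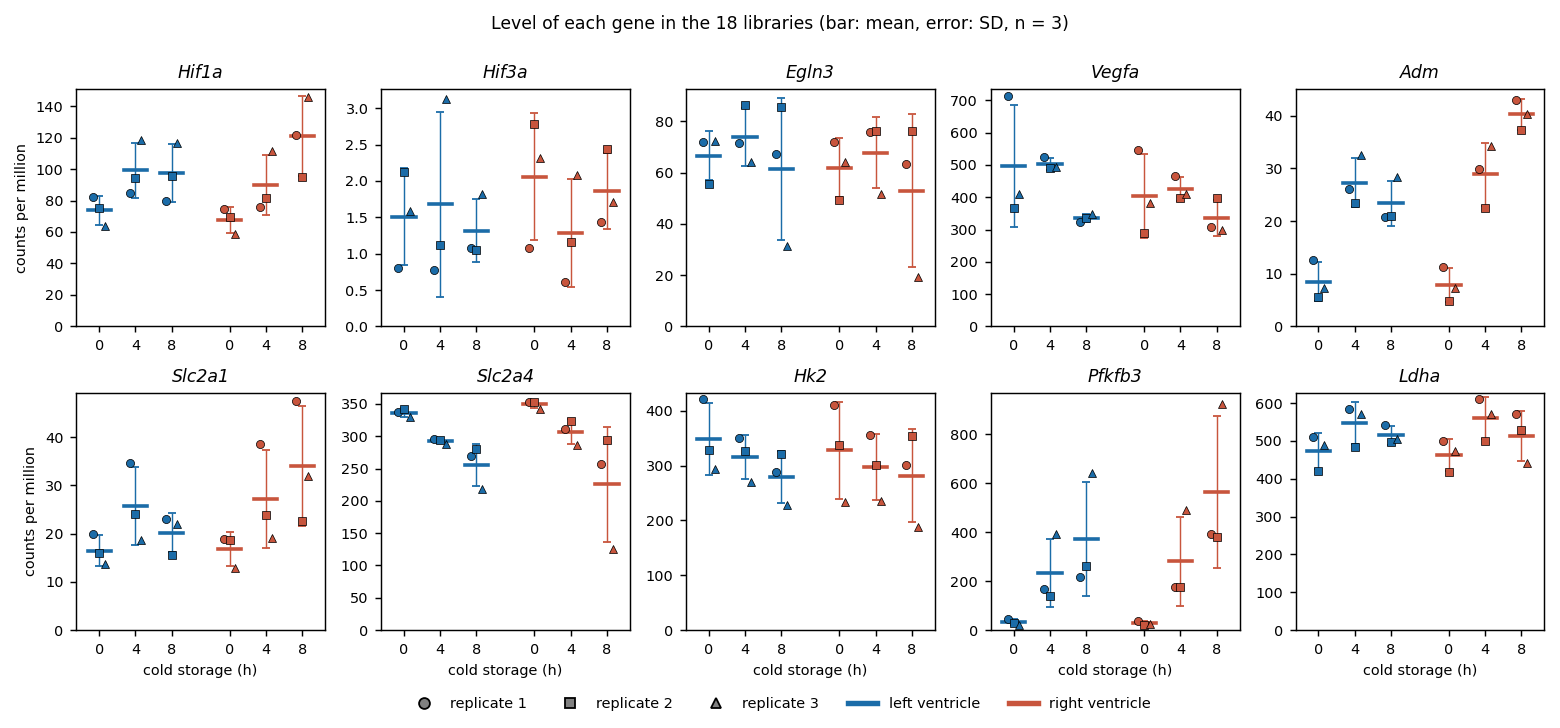
Level of each of the 10 genes in CPM (vertical axes, from 0) against hours of cold storage (horizontal axes), with LV in blue and RV in red. Symbols are single libraries by replicate number, bars the mean and error bars the SD of 3 libraries. Pfkfb3 and Adm lie higher in every stored library than in any at 0 h, Slc2a4 lies lower in every stored library, and replicate 3 at 8 h is lowest for Egln3, Slc2a4 and Hk2.

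Per length, with all entries of a gene summed, Vegfa and Ldha were the most abundant of the 10 and Hif3a the least. The mean level in LV at 0 h, in transcripts-per-million units (TPM), was 471 TPM for Vegfa, 423 TPM for Ldha, 194 TPM for Slc2a4, 80.2 TPM for Hk2, 33.0 TPM for Egln3 and 22.9 TPM for Hif1a. Pfkfb3 followed with 11.6 TPM, Adm with 9.21 TPM, Slc2a1 with 7.52 TPM and Hif3a with 0.469 TPM. The libraries of Vegfa and Ldha overlapped, as did those of Pfkfb3, Adm and Slc2a1, and the other neighbours in the order did not. The rank of Vegfa rests in large part on short entries annotated as retained introns. Its coding entry Vegfa-202 alone had a mean of 122 TPM in LV at 0 h, beside 413 TPM for the coding entry Ldha-202 and 164 TPM for Slc2a4-201. Within RV at 8 h Ldha led with 288 to 399 TPM, followed without overlap by Vegfa with 199.5 to 247 TPM. Pfkfb3 came next there with 98.7 to 211.5 TPM and overlapped both Vegfa above it and Slc2a4 below it with 47.8 to 137 TPM. TPM values are shares of a library in which the mitochondrial transcripts also count, so they order genes within a group and are no measure of change between times.

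Hif1a, the oxygen-regulated subunit that pairs with Arnt, rose in RV at 8 h. Its level in RV was 74.6, 69.6 and 58.5 CPM at 0 h, 76.1, 81.8 and 111.7 CPM at 4 h, and 121.9, 95.1 and 145.9 CPM at 8 h. Every RV library at 4 and 8 h was above every one at 0 h. The log2 fold change at 8 h was 0.86 ± 0.23 (SE), or 1.81-fold, with an adjusted p of 0.0371 by edgeR's quasi-likelihood test. In LV the libraries held 82.2, 75.0 and 64.0 CPM at 0 h, 84.7, 94.5 and 118.3 CPM at 4 h, and 79.8, 95.4 and 116.6 CPM at 8 h. The LV log2 differences were 0.43 at 4 h (adjusted p = 0.297) and 0.40 at 8 h (adjusted p = 0.217) in the same edgeR test, and neither was called. The RV call was lost without replicate 2 at 0 h (adjusted p = 0.119) and without replicate 3 at 0 h (adjusted p = 0.135), and without all libraries numbered 3 the log2 difference of 0.57 was under 1.5-fold.

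Hif3a, a HIF alpha subunit whose variants can oppose the others, had the lowest counts of the 10. It was covered by 25 to 85 counts in each library and lay between 0.609 and 3.13 CPM. The 6 group means ran from 1.28 CPM in RV at 4 h to 2.06 CPM in RV at 0 h, and the groups overlapped. Its log2 differences from 0 h lay between -0.67 and 0.16, with standard errors of 0.48 to 0.55. How much of these errors comes from the low counts and how much from the spread between libraries was not separated.

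Egln3, the hydroxylase that HIF itself induces, was not called in any comparison. In LV it was at 71.9, 55.7 and 72.2 CPM at 0 h, 71.7, 86.3 and 64.1 CPM at 4 h, and 67.2, 85.8 and 31.3 CPM at 8 h. In RV it was at 72.1, 49.4 and 64.1 CPM at 0 h, 75.7, 76.2 and 51.7 CPM at 4 h, and 63.4, 76.1 and 19.3 CPM at 8 h. At 8 h replicate 3 was the lowest library of all in both ventricles, while replicates 1 and 2 lay within or above the range at 0 h. Replicate 3 at 8 h also had low summed Y-linked levels, at 6.65 CPM in LV and 6.78 CPM in RV. The log2 difference at 8 h was -0.11 in LV and -0.23 in RV, and without replicate 3 of that group it was 0.19 and 0.18.

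Adm, the vasodilator peptide adrenomedullin and a classical hypoxia-induced gene, rose in all 4 comparisons with 0 h. In LV the libraries held 12.6, 5.57 and 7.28 CPM at 0 h, 26.0, 23.4 and 32.4 CPM at 4 h, and 20.8, 21.0 and 28.3 CPM at 8 h. In RV they held 11.4, 4.84 and 7.38 CPM at 0 h, 29.8, 22.4 and 34.3 CPM at 4 h, and 43.0, 37.3 and 40.4 CPM at 8 h. Every stored library was above every library at 0 h of its ventricle, and in RV the 8 h libraries were also above those at 4 h. In LV its log2 fold change reached 1.68 ± 0.29 at 4 h and 1.45 ± 0.29 at 8 h (SE, adjusted p = 0.0378 and 0.0332, edgeR). The RV values were 1.89 ± 0.29 at 4 h and 2.36 ± 0.29 at 8 h (SE, adjusted p = 0.00998 and 0.00213), or 5.15-fold at 8 h. The RV calls held without any single library. The LV call at 4 h was lost without replicate 2 or 3 at 0 h or replicate 1 or 3 at 4 h (adjusted p = 0.1845, 0.171, 0.1085 and 0.122), and that at 8 h without replicate 2 or 3 at 0 h (adjusted p = 0.128 and 0.1215).

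Vegfa, the main angiogenic ligand of endothelium, was not called in any comparison. In LV it was at 713.0, 367.3 and 410.4 CPM at 0 h, 523, 490.1 and 494 CPM at 4 h, and 323, 336 and 347 CPM at 8 h. In RV it was at 545, 288 and 382 CPM at 0 h, 467, 399 and 411 CPM at 4 h, and 308, 399 and 299 CPM at 8 h. Replicate 1 at 0 h was the highest library in both ventricles. All LV libraries at 8 h were below all at 0 h, with a log2 difference of -0.56 ± 0.22 (SE) and an adjusted p of 0.173 in edgeR's test. The RV log2 difference at 8 h was -0.26 with overlapping groups. By TPM the gene was spread over short entries, and the coding entry Vegfa-202 carried 23.7% to 26.4% of the gene's TPM as a group mean. Entries annotated as retained introns carried the larger part of the rest, with Vegfa-209 at 22.8% to 27.1%.

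Slc2a1 (GLUT1), the basal glucose transporter, rose in RV at 8 h. The RV libraries held 18.9, 18.7 and 12.8 CPM at 0 h, 38.6, 24.0 and 19.2 CPM at 4 h, and 47.5, 22.7 and 31.9 CPM at 8 h. Each stored RV library was above all at 0 h, with replicate 1 the highest at both times. The log2 fold change at 8 h was 1.02 ± 0.32 (SE), or 2.03-fold, with an adjusted p of 0.0653 in edgeR's test. The LV libraries held 19.9, 16 and 13.7 CPM at 0 h, 34.6, 24.1 and 18.7 CPM at 4 h, and 23.1, 15.5 and 21.9 CPM at 8 h, and both stored groups overlapped 0 h. The RV call was lost at an adjusted p of 0.05. It was also lost without any 1 of the 3 libraries at 0 h (adjusted p = 0.1095, 0.152 and 0.196 without replicates 1, 2 and 3), or without replicate 1 or 3 at 8 h (adjusted p = 0.184 and 0.116).

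Slc2a4 (GLUT4), the insulin-responsive transporter of muscle, was lower in every stored library. In LV it was at 338, 342 and 329 CPM at 0 h, 295, 294 and 288 CPM at 4 h, and 269.5, 279.6 and 219 CPM at 8 h, so that the 3 groups did not overlap. In RV it was at 353, 353 and 342 CPM at 0 h, 312, 324 and 286 CPM at 4 h, and 258, 295 and 125 CPM at 8 h. The spread was small at 0 h (SD 6.47 CPM in LV and 6.24 CPM in RV) and largest in RV at 8 h (SD 89.1 CPM), where replicate 3 was far below the others. The LV log2 difference at 8 h was -0.39 ± 0.12 (SE, adjusted p = 0.0978, edgeR), which is under 1.5-fold and was not called. In RV it was -0.63 ± 0.27 (SE, adjusted p = 0.146, edgeR), and with the replicate block it was -0.68 ± 0.23 (adjusted p = 0.0733), past both limits. It was also called without RV replicate 2 at 8 h (log2 -0.87, adjusted p = 0.0510), and without RV replicate 3 at 8 h the log2 difference was -0.33. The same library had the lowest summed cardiomyocyte markers, at 23500 CPM, and the markers of LV at 8 h were also below those at 0 h. Whether the markers account for the lower Slc2a4 was not tested.

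Hk2, which phosphorylates glucose on entry, was not called. It lay at 421, 328 and 294.5 CPM in LV at 0 h and at 289, 321.5 and 228 CPM at 8 h. In RV it lay at 411, 337 and 234 CPM at 0 h and at 301, 354 and 188.5 CPM at 8 h. Groups overlapped in both ventricles, and the log2 differences at 8 h were -0.31 in LV and -0.21 in RV. Its 4 h libraries ranged from 271 to 350.2 CPM in LV and from 235 to 355.5 CPM in RV, with means between those of the other times. Replicate 3 was the lowest of its group at every time.

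Pfkfb3, an enzyme of the family that makes the phosphofructokinase activator, changed most of the 10. In LV the libraries held 44.0, 30.6 and 20.5 CPM at 0 h, 169, 139 and 393 CPM at 4 h, and 217, 261 and 639.7 CPM at 8 h. In RV they held 37.7, 22.6 and 23.3 CPM at 0 h, 176.5, 175 and 491 CPM at 4 h, and 394, 379 and 923 CPM at 8 h. Each stored library was above the highest at 0 h, and replicate 3 was the highest at 4 and 8 h in both ventricles. LV gave a log2 fold change of 2.88 ± 0.54 at 4 h and 3.56 ± 0.56 at 8 h (SE, adjusted p = 0.0459 and 0.0167, edgeR). RV gave 3.35 ± 0.55 at 4 h and 4.37 ± 0.57 at 8 h (SE, adjusted p = 0.0124 and 0.00269), the last a 20.7-fold rise with a 95% interval of 8.5 to 50.4. Replicate 3 carried much of the size, and without it the log2 fold change at 4 h was 2.27 for LV and 2.67 for RV, and at 8 h it was 2.90 for LV. With each library left out in turn, the RV value at 8 h ranged from 3.80 to 4.65. Replicate 3 at 4 and 8 h also had low summed Y-linked levels, at 4.63 to 6.78 CPM, unlike replicate 3 at 0 h. The part of this in the level of Pfkfb3 was not tested. The RV calls held without any single library. The LV call at 4 h was lost without replicate 2 or 3 at 0 h or replicate 1 or 3 at 4 h (adjusted p = 0.234, 0.201, 0.1085 and 0.130), and that at 8 h without replicate 2 at 0 h (adjusted p = 0.104). The coding entry Pfkfb3-206 carried 42.1% ± 4.67 of the gene's TPM in LV at 0 h and 50.1% ± 5.87 at 8 h, and 52.9% ± 6.46 and 52.9% ± 2.20 in RV (SD, n = 3). Another coding entry, Pfkfb3-214, carried 21.4% and 19.3% in LV and 17.2% and 23.4% in RV.

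Ldha, which turns pyruvate into lactate, was high throughout and not called. It lay at 511, 420.1 and 489 CPM in LV at 0 h, at 585, 484 and 571.5 CPM at 4 h and at 541.5, 496 and 505 CPM at 8 h. In RV it lay at 500.2, 417 and 472 CPM at 0 h, at 612, 501 and 571 CPM at 4 h and at 571, 528 and 442 CPM at 8 h. The groups overlapped in both ventricles. The LV log2 difference was 0.21 at 4 h and 0.12 at 8 h, and the RV one 0.29 and 0.16, with 95% intervals from -0.16 to 0.40 and from -0.23 to 0.54 at 8 h. Processed copies of Ldha drew at most 5 counts in a library, and adding them changed no call.

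**Figure D3:**
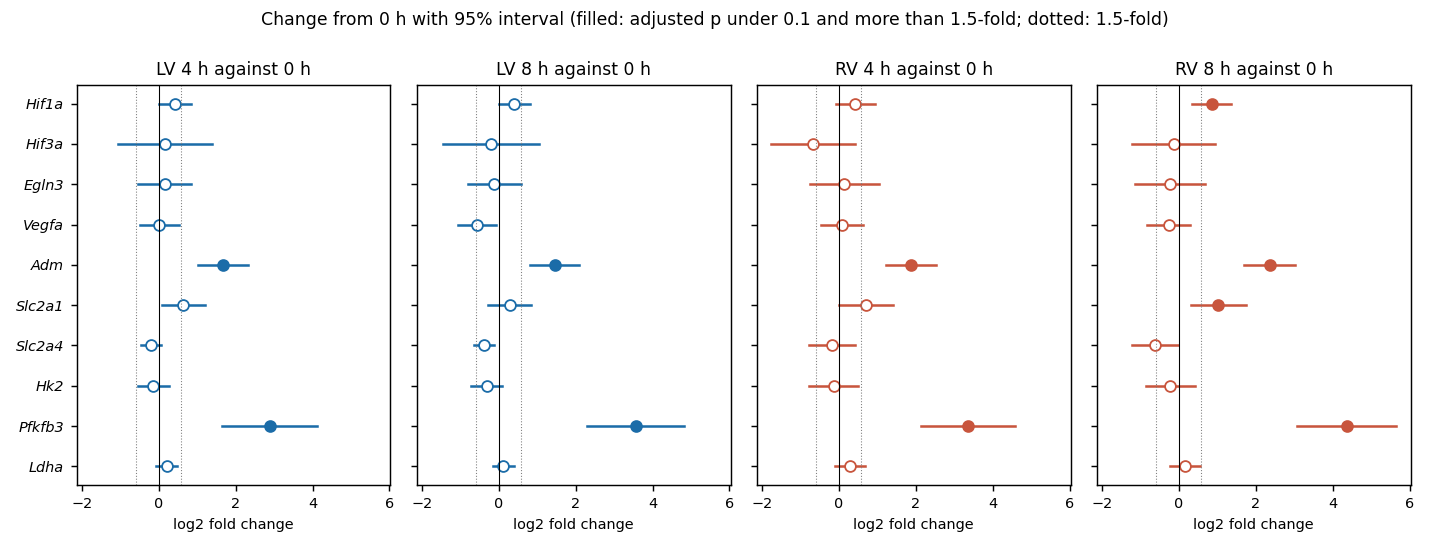
Log2 fold change from 0 h (horizontal axes, linear in log2) of the 10 genes (vertical axis) at 4 and 8 h in LV (blue) and RV (red). Points are the values of edgeR's fit, lines their 95% intervals, filled points the calls, and dotted lines 1.5-fold in either direction. Pfkfb3 and Adm are filled in all 4 panels, and Hif1a and Slc2a1 only in RV at 8 h.

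Between 4 and 8 h no member was called in either ventricle, and 0.0% of all genes were (edgeR's test found 0 of 14564 in LV and 0 of 14622 in RV). At an unadjusted p under 0.05 there were 1180 genes in LV, 1 of them the member Vegfa, and 961 in RV with no member, and DESeq2 called 71 and 43 genes and no member. Pfkfb3 held the largest positive log2 difference of the members, 0.68 in LV and 1.02 in RV, with overlapping libraries.

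LV and RV differed in 3 of the 10 genes at 8 h once the heart was taken into account, and no member was called at 0 or 4 h. Without the block no member was called at 0, 4 or 8 h, where 0.159%, 0.0133% and 0.0331% of 15093 genes were called. In the fit with the heart as a block Adm, Slc2a1 and Pfkfb3 were called at 8 h, all higher in RV, where 8.78% of genes were called in either direction and 6.53% as higher in RV. At 0 and 4 h none was called with the block either. The RV to LV ratio in the 3 hearts at 8 h was 2.07, 1.78 and 1.43 for Adm, 2.06, 1.46 and 1.45 for Slc2a1, and 1.82, 1.45 and 1.44 for Pfkfb3. All 9 ratios were above 1, and the ratios at 0 h lay between 0.739 and 1.17 for these genes and at 4 h between 0.959 and 1.26. The blocked difference was 1.74-fold for Adm (log2 -0.80 ± 0.095 for LV minus RV, SE, adjusted p = 0.000455, edgeR). For Slc2a1 it was 1.65-fold (log2 -0.72 ± 0.103, adjusted p = 0.000878) and for Pfkfb3 1.56-fold (log2 -0.64 ± 0.117, adjusted p = 0.00316). Unblocked, the same log2 differences were -0.79 ± 0.30, -0.76 ± 0.31 and -0.60 ± 0.54 (SE). Without the heart numbered 1 at 8 h only Adm was called with the block.

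Hif1a had ratios of 1.53, 0.997 and 1.25 in the same hearts, with a blocked log2 difference of -0.31 (adjusted p = 0.0374, edgeR) that is under 1.5-fold. The ratio of Slc2a4 was 0.956 and 1.05 in replicates 1 and 2 and 0.573 in replicate 3, and that of Egln3 was 0.944, 0.887 and 0.619. For Ldha it was 1.05, 1.06 and 0.874, for Hk2 1.04, 1.10 and 0.825, and for Vegfa 0.952, 1.19 and 0.861. Hif3a, at few counts, had 1.33, 2.33 and 0.937. Cell type markers also differed between RV and LV. At 8 h fibroblast markers were at 806 to 1479 CPM in RV and 720 to 1032 CPM in LV, and macrophage markers at 141 to 308 and 118 to 198 CPM, with replicate 1 the highest in each. Fibroblast markers were already higher in RV at 0 h, at 766 to 809 against 611 to 689 CPM. Adipocyte markers at 8 h were at 6.05 to 26.0 CPM in RV and 1.25 to 15.0 CPM in LV, and all 3 of those tested (Adipoq, Cfd and Plin1) were called higher in RV with the block. They too were higher in RV at 0 h, at 5.25 to 5.61 against 1.59 to 3.75 CPM. Macrophage markers overlapped at 0 h, at 136 to 205 CPM in RV and 106 to 162 CPM in LV. The part of these markers in the 3 called genes was not tested.

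**Figure D4:**
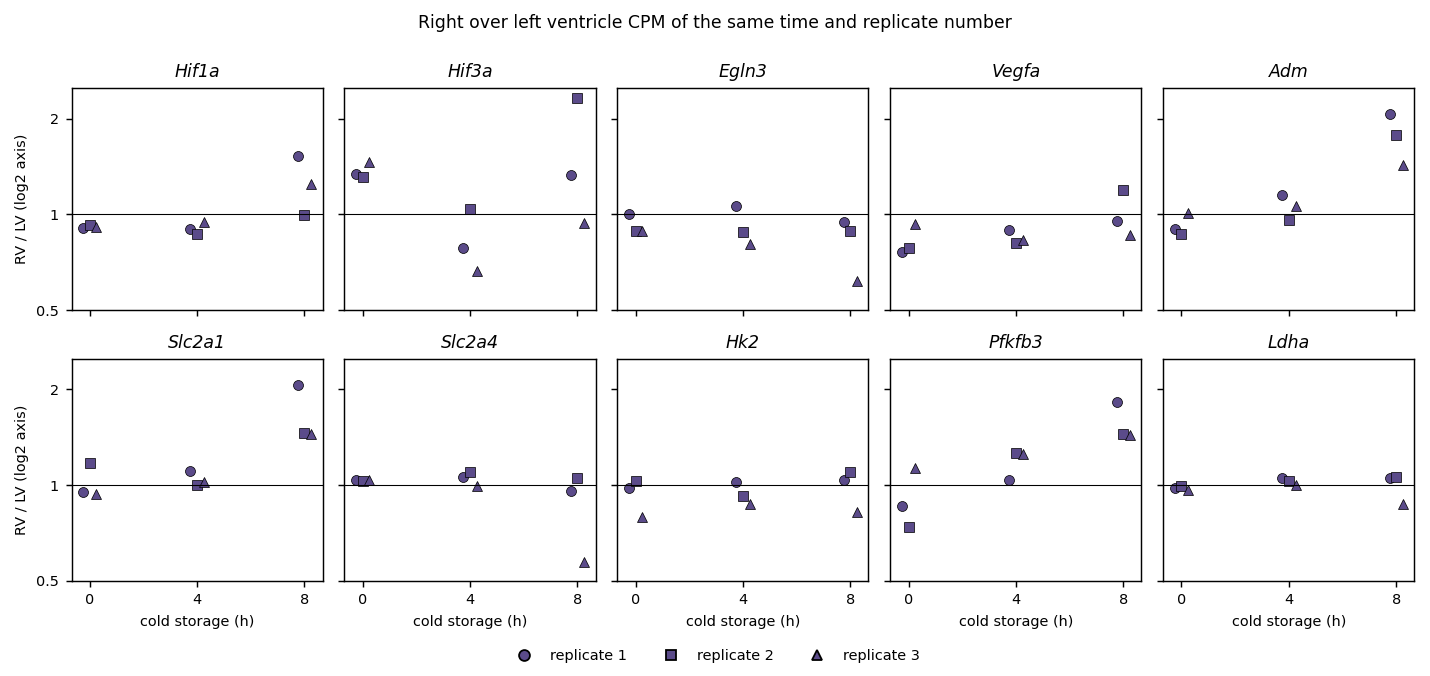
Ratio of RV to LV CPM within a heart (vertical axes, log2 scale) against hours of cold storage (horizontal axes) for the 10 genes, with 1 symbol per heart by replicate number and a line at 1. At 8 h all hearts lie above 1 for Adm, Slc2a1 and Pfkfb3, and replicate 3 lies lowest for Slc2a4 (0.573) and Egln3 (0.619).

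The change from 0 to 8 h itself differed between ventricles for the same 3 genes in the blocked fit. The log2 change was smaller in LV for these genes, with LV minus RV at -0.91 ± 0.146 for Adm, -0.81 ± 0.168 for Pfkfb3 and -0.70 ± 0.146 for Slc2a1 (SE, adjusted p = 0.00422, 0.0166 and 0.0163, edgeR). In that fit 5.71% of genes were called in either direction and 4.72% with LV minus RV below 0. The latter share also holds genes that fell more in LV than in RV. Without the block edgeR called no gene for the change to 4 h or to 8 h (0.0%), while 158 and 628 genes reached an unadjusted p below 0.05 and DESeq2 called 0 and 2. Without the heart numbered 1 at 8 h the blocked call of Slc2a1 was lost, while Adm and Pfkfb3 had adjusted p of 0.0178 and 0.0727.

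Around these 10, no other gene of the HIF system was called. Of 14 genes for HIF subunits, hydroxylases and the Vhl complex, 13 were tested in LV and 14 in RV. The only call was the member Hif1a in RV at 8 h, where 13.0% of all genes were called higher. Without the members 10 genes were tested in LV and 11 in RV, and none was called. Epas1, another HIF alpha subunit, was at 320 to 371 CPM in LV at 0 h and 317 to 322 CPM at 8 h, with a log2 difference of -0.09. The RV difference was 0.05. Arnt, the shared partner, had log2 differences of -0.17 and 0.14 at 8 h in LV and RV. Of the other hydroxylases, Egln1 had -0.11 and -0.39 and Egln2 0.05 and -0.19, and Vhl had -0.08 and -0.07. The lowest RV library of Egln1 at 8 h held 136 CPM, against 341 to 405 CPM at 0 h.

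Of 22 listed glycolytic enzymes 21 were tested, and the member Pfkfb3 was the only call at 4 h in either ventricle and at 8 h in LV. Over all genes 2.4% and 6.17% were called higher at 4 h in LV and RV, and 5.46% at 8 h in LV. Without the members Hk2, Pfkfb3 and Ldha, none of 18 was called in these comparisons. Beside Pfkfb3, Pfkp was called higher and Pfkfb1 lower in RV at 8 h. Thus 2 of 21 were higher against 13.0% of all genes and 1 was lower against 5.26%, counts close to the background. With the block the RV calls were 2 higher and 1 lower at 4 h, against 8.45% and 5.4% of all genes, and 2 higher and 2 lower at 8 h, against 15.5% and 8.81%. They were Pfkfb3, Pfkp and Pfkfb1 at both times, with Pfkfb2 lower at 8 h. The median log2 difference of the 21 was -0.13 in LV and -0.22 in RV at 8 h, with 14 and 16 of them below 0. Pfkp, the platelet-type phosphofructokinase subunit, was at 38.4 to 47.8 CPM in RV at 0 h and 69.3 to 104 CPM at 8 h (log2 1.03 ± 0.20, SE, adjusted p = 0.0119, edgeR). Pfkfb1, a sister of Pfkfb3, went from 18.2 to 32.5 CPM at 0 h to 9.11 to 15.6 CPM at 8 h in RV (log2 -1.18 ± 0.355, SE, adjusted p = 0.058, edgeR). Hk1 had log2 differences at 8 h of -0.32 in LV and -0.31 in RV, and Ldhb, the heart-type lactate dehydrogenase subunit, -0.18 and -0.47, none of them called.

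Among 25 genes of glucose uptake and of lactate and pyruvate handling, 1 rose and 2 fell in LV at 8 h, and 3 rose and 2 fell in RV. Over all genes 5.46% and 1.26% were called higher and lower in LV, and 13.0% and 5.26% in RV, so the count of those that rose in RV is near the background. With the block the RV counts were 4 and 7, against 15.5% and 8.81% of all genes, and the median log2 difference of the list was -0.35 in LV and -0.51 in RV. Without the members Slc2a1 and Slc2a4, 2 of 23 rose and 2 fell in RV at 8 h, or 3 and 6 with the block. Slc2a3, the high-affinity transporter of neurons and blood cells, rose from 2.31 to 2.78 CPM in RV at 0 h to 4.71 to 8.32 CPM at 8 h (log2 1.45 ± 0.25, SE, adjusted p = 0.00746, edgeR), and in LV by 0.88. Slc16a3, the lactate exporter MCT4, rose in RV at 8 h (log2 1.94 ± 0.56, SE, adjusted p = 0.0512, edgeR), and in LV its log2 difference was 0.30. Pdk4, a kinase that shuts off pyruvate dehydrogenase, rose in RV at 4 h from a mean of 570.0 to 1590 CPM (log2 1.5 ± 0.43, SE, adjusted p = 0.075, edgeR) and had 1.38 in LV (adjusted p = 0.127). At 8 h Pdk4 was not called in either ventricle, with or without the block, and its log2 difference averaged 0.56 over the ventricles. The kinases Pdk1 and Pdk2 were called in RV at 8 h only with the block, and not both of them as higher. Both phosphatases that switch pyruvate dehydrogenase on were lower at 8 h, Pdp1 in both ventricles (log2 -0.67 and -0.68) and Pdp2 in RV (log2 -0.90). Pygb, a glycogen phosphorylase, fell in LV at 8 h (log2 -0.60, adjusted p = 0.0746, edgeR).

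Of other textbook HIF targets, 26 of 28 were tested. At 8 h the LV calls were 4 upward and 2 downward, and the RV calls 8 upward and 0 downward (9 and 3 with the block). The RV genes called only with the block were Ankrd37, Bhlhe40, Mxi1 and Stc2, most of them downward. The shares of all genes called upward and downward were, as above, 5.46% and 1.26% for LV, and for RV 13.0% and 5.26%, or 15.5% and 8.81% with the block. This list had a median log2 difference of -0.02 in LV and 0.06 in RV. Angptl4, an inhibitor of lipoprotein lipase, had the largest change of the list at 8 h as a mean of the ventricles, with log2 2.42 in both (adjusted p = 0.0918 in LV and 0.0976 in RV, edgeR). Hmox1, the heme-degrading stress enzyme, rose in all 4 comparisons, from 14.5 to 19.0 CPM in RV at 0 h to 53.6 to 170.0 CPM at 8 h (log2 2.61). Lox, which crosslinks collagen, also rose in all 4, by log2 1.80 in LV and 2.36 in RV at 8 h. Ddit4, an inhibitor of mTORC1 signaling, rose in RV at 8 h from 9.4 to 50.1 CPM at 0 h to 77.6 to 117 CPM (log2 1.99 ± 0.65, SE, adjusted p = 0.0763, edgeR) and had a log2 difference of 1.68 in LV (adjusted p = 0.104). Stc2, a secreted glycoprotein, fell in LV at both times (log2 -0.70 and -0.60), and its RV differences of -0.77 and -0.73 were called only at 8 h with the block (adjusted p = 0.0798, edgeR). Cited2, a transcriptional coregulator that competes with HIF, fell in LV at 8 h (log2 -0.66) with -0.05 in RV. At 4 h its log2 differences were positive, 0.49 in LV and 0.61 in RV, and the RV value was called with the block (adjusted p = 0.0708, edgeR).

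Of 16 tested ligands and receptors of the VEGF and adrenomedullin pathways, 2 were called higher in LV at 8 h, against 5.46% of all genes, and 6 in RV, against 13.0% (edgeR, with 0 called lower at that time, or 1 in RV with the block). These counts include the member Adm. Without the members Vegfa and Adm, 1 of 14 was called higher in LV (Nrp2) and 5 of 14 in RV. Pgf, a ligand of the VEGF receptor Flt1, rose in RV at 8 h from 4.47 to 8.77 CPM to 17.5 to 35.5 CPM (log2 1.94 ± 0.45, SE, adjusted p = 0.0234, edgeR). Flt4, the receptor of lymphatic endothelium, rose in RV (log2 1.37, adjusted p = 0.0679), and Ramp3, an accessory protein of the adrenomedullin receptor, rose in RV at both times (log2 1.48 and 1.32). Vegfd fell in RV at 4 h (log2 -0.79, adjusted p = 0.0908). The main VEGF receptor Kdr had log2 differences at 8 h of -0.61 in LV and -0.84 in RV without a call, and the adrenomedullin receptor Calcrl had -0.09 and 0.23 and its partner Ramp2 0.05 and -0.23.

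**Figure D5:**
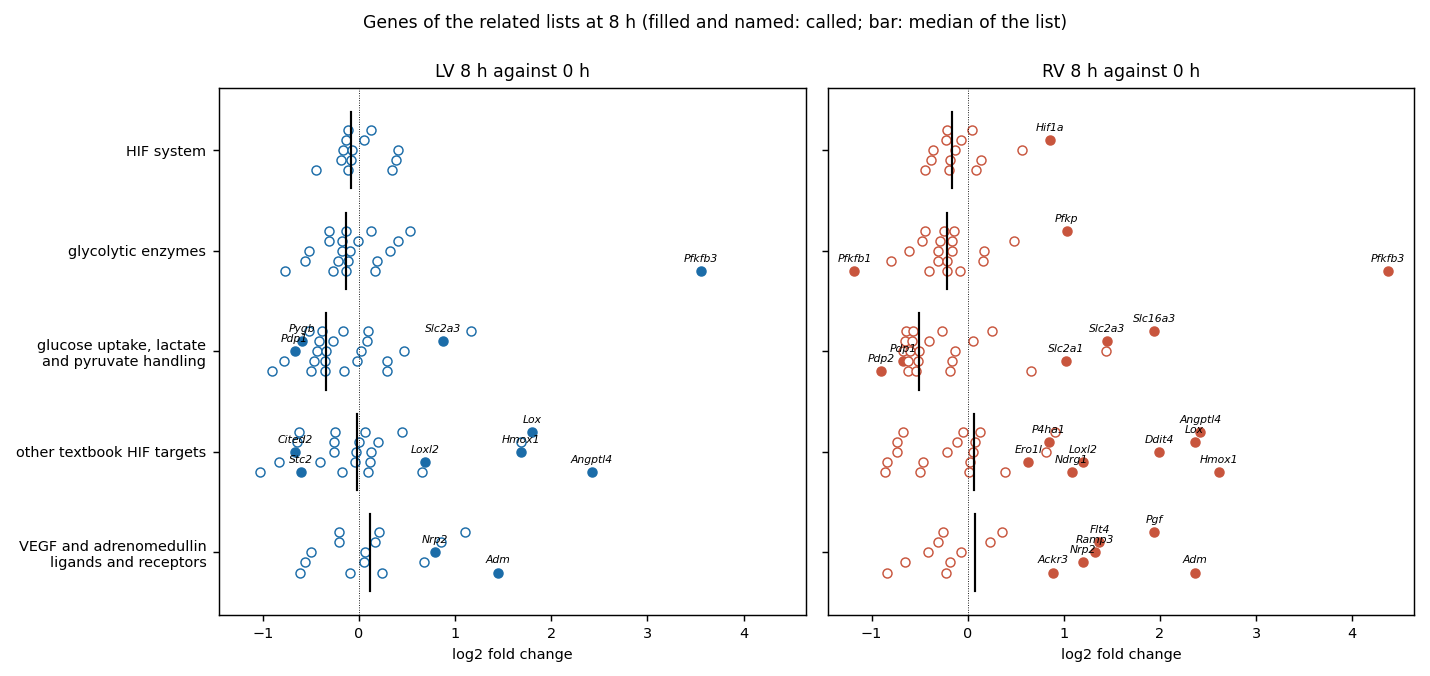
Log2 fold change at 8 h (horizontal axes, linear in log2) of the genes in 5 related lists (vertical axis) in LV (left, blue) and RV (right, red). Filled and named points are called, open points are not, bars are list medians, and the vertical offset within a list only separates points. Pfkfb3 (3.56 and 4.37) lies far to the right of its list, whose median was -0.13 in LV and -0.22 in RV.

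The genes whose log2 CPM followed that of Pfkfb3 most closely over the 18 libraries were Tnip1 (Pearson r = 0.994), Zfp729a (0.988) and Casp4 (0.988), among 9971 genes with a mean of at least 5 CPM. For Slc2a4 they were Calcoco1 (0.978), Nup88 (0.976) and Lztr1 (0.976). The libraries share storage time, heart and depth, so these values describe likeness alone. Tnip1, an inhibitor of NF-kappaB signaling, rose at 8 h by log2 2.46 in LV and by 3.32 in RV, and Casp4, an inflammatory caspase, by 2.85 and 4.07.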

How the data were processed

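RNA of LV and RV was sequenced in 18 libraries. Per the labels and the study's methods, the authors quantified transcripts with Kallisto against GRCm38 and deposited estimated counts and TPM for each transcript. Estimated counts were summed here to 34989 genes (GENCODE annotation of GRCm38) and rounded, and TPM were summed without change. Of 111462 transcripts in the files, 1259 had no gene in that annotation and were left out. Library totals ranged from 22552581 to 46236771 estimated counts. The counts were not split by strand here, so overlapping genes (Gm49321 for Hif1a) may share reads.

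Genes were filtered with filterByExpr, scaled by TMM and tested with edgeR 4.0.16 in R 4.3.3 (quasi-likelihood F-test, two-sided, Benjamini-Hochberg over all genes tested). Genes past both a fold change of 1.5 and an adjusted p of 0.1 were called. Storage times were compared on the 9 libraries of a ventricle, and LV with RV, and the difference in change, on all 18. Levels are CPM of TMM-adjusted library sizes, and TPM served only to order genes within a group. Transcript shares are estimates from short reads. On simulated data the test of storage times and the blocked test of LV against RV recovered the changes put in, while the unblocked test of LV against RV did not call them when hearts were given their own deviations. Those deviations were shared by the ventricles of a heart, as the block assumes, and the changes put in exceeded the LV to RV differences reported here. The simulation thus checks the code and cannot show whether the block suits these data.

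Replicate numbers were taken to pair libraries where the deviations from group means of every same-numbered pair correlated above 0.1 across genes. That held for LV with RV at each time (0.49 to 0.81), for all pairs of times in RV (0.15 to 0.55) and for LV 4 with 8 h (0.49 to 0.67), but not for LV 0 with 4 h (from 0.06) or 0 with 8 h (from -0.034). The methods state that both ventricles were taken from a heart, not that a number names a heart. Storage times used different hearts, so a number shared between times does not name 1 animal.

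Alternatives were DESeq2 1.42.0, RLE size factors, no count filter, a stricter adjusted p of 0.05, offsets for transcript length, removal of mitochondrial genes, a Y-linked covariate, the replicate block, a fit on all 18 libraries, Ldha pseudogenes added, and each library left out. Leaving out the libraries numbered 3, and each heart under the block, were chosen after seeing the data. From each related list up to 4 called genes a direction with the largest mean change at 8 h were named, together with a fixed set of partners. The 10 members and the lists were chosen with earlier results of these data known. A gene of the list of other HIF targets is not reported here and was left out of that list's counts.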

Additional observations from a re-analysis of the deposited data

Results flagged for a closer look

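The change from 0 to 8 h differed between ventricles for 3 of the 10 genes when the heart was a block. The difference, LV minus RV on the log2 scale, was -0.7003 for Slc2a1, -0.8052 for Pfkfb3 and -0.9106 for Adm, with adjusted p of 0.0163, 0.0166 and 0.00422 in edgeR's quasi-likelihood test. Without the block the differences were -0.73, -0.79 and -0.90, and edgeR called none of them. The RV to LV ratio at 8 h was above 1 in all 3 hearts for each gene.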

How the results depend on the processing

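Of 412 values of single genes under the alternatives other than leaving out a library, 399 kept their direction and side of the threshold. With offsets for transcript length the log2 difference changed sign for Hif3a in LV at 4 h (-0.38), Vegfa in LV at 4 h (-0.062) and Hif3a in RV at 8 h (0.34). Without the libraries numbered 3 it changed sign for Hif3a (-0.59) and Vegfa (-0.10) in LV at 4 h and for Egln3 at 8 h (0.24 in LV, 0.18 in RV), and the members called were 1 in LV and 2 in RV at 8 h. None of these reversed values was called, and the cause was not tested.

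With a library left out the members called ranged from 0 to 2 in LV at 4 h and at 8 h, stayed at 2 in RV at 4 h, and ranged from 2 to 5 in RV at 8 h. The log2 differences that changed sign ranged in LV at 4 h from -0.65 to 0.51 for Hif3a, -0.16 to 0.37 for Vegfa and -0.25 to 0.021 for Hk2, and in LV at 8 h from -0.51 to 0.14 for Hif3a and -0.41 to 0.19 for Egln3. In RV they ranged at 4 h from -0.11 to 0.37 for Vegfa and -0.32 to 0.079 for Hk2, and at 8 h from -0.44 to 0.14 for Hif3a, -0.59 to 0.18 for Egln3, -0.46 to 0.015 for Vegfa and -0.42 to 0.0076 for Hk2.

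With the heart as replicate block 3 members were called between LV and RV at 8 h and 3 for the difference in change to 8 h, against 0 without it. Without the libraries numbered 3 these blocked counts were 4 and 3, and with each heart left out they ranged from 1 to 4 and from 2 to 4. In LV the numbers did not pair 0 h with the stored libraries, and the block gave 662 genes at 4 h and 1540 at 8 h, with the 2 members called in each. Apart from these results and Slc2a4 in RV at 8 h, the block changed no member's call. Slc2a4 was also called with the Y-linked covariate (-0.68) and in the fit on all 18 libraries (-0.63).

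Counts over all genes, and with them the shares set beside the members, moved more. With a library left out they ranged from 15 (without LV replicate 2 at 0 h) to 557 in LV at 4 h, from 142 (without LV replicate 2 at 0 h) to 1928 (without LV replicate 2 at 8 h) in LV at 8 h, from 321 (without RV replicate 2 at 0 h) to 1440 in RV at 4 h, and from 1263 (without RV replicate 2 at 0 h) to 4643 (without RV replicate 2 at 8 h) in RV at 8 h. LV at 4 h gave 407 calls, against 913 with DESeq2, 684 with the Y-linked covariate and 178 at an adjusted p of 0.05. LV at 8 h gave 978, against 1500 with DESeq2 and 482 at 0.05, and RV at 4 h 1474 against 801 at 0.05. RV at 8 h gave 2665, against 1712 without the libraries numbered 3. LV against RV at 0, 4 and 8 h gave 24, 2 and 5 calls, against 59, 24 and 182 with DESeq2, 46, 4 and 52 with the Y-linked covariate, 11, 0 and 0 with length offsets, 6, 0 and 0 at 0.05, and 279, 291 and 1325 with the block. At 8 h they were 0 with RLE size factors, 2 without mitochondrial genes and 281 without the libraries numbered 3. The difference in change to 4 and 8 h gave 46 and 862 with the block. Hif3a, at 25 to 85 counts, had the least depth of the members.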

Other observations

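The short processed transcript Hk2-202 carried 44.6% of the TPM of Hk2 in LV replicate 3 at 8 h and 46.4% in RV replicate 3 at 8 h. It carried 30.1% in RV replicate 3 at 0 h and 15.5% in RV replicate 3 at 4 h, and at most 3.03% in any other library. The coding entry Slc2a1-201 carried 63.6% ± 4.52 of the TPM of Slc2a1 in LV at 0 h and 44.7% ± 4.17 at 8 h, against 54.1% ± 5.45 and 57.1% ± 5.97 in RV (SD, n = 3), with the remainder mostly in Slc2a1-204, an entry annotated for nonsense-mediated decay. These shares were not tested.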
